A study of Rattus norvegicus with 20 samples.

Results

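Genes of activated phagocytes, 10 in number, were read in pools of laser-captured cortical neurons: Gpnmb, Lgals3, Lpl, Cst7, Lyz2, Cd68, Tyrobp, Ctsz, Ctss and Tlr2. They were followed on every probe whose gene name in the array files was one of these symbols, or Lyz for Lyz2, which gave 11 probes of 9 genes. Cd68 has no probe under its symbol, and the probe that carries its accession as a name was taken for it. This made 12 probes of 10 genes among 41012 gene probes, with Lpl and Ctss on 2 probes each, and all 12 were among the 34225 probes bright enough to be tested. The genes were selected on results of these arrays, taken here to be the sprouting ratios of day 7. Their day 7 values, and any difference built on them, are therefore a description without a test. The day 21 ratios were tested on that assumption, with a spread estimated from both days.

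The animals were 10 rats aged 2 years, all with a stroke, in which cholera toxin B carrying a fluorescent dye was placed into the cortex beside the infarct and the same tracer with a different dye was later placed at the same site. The later injection came 7 days after the first in 5 animals (day 7) and 21 days after it in 5 separate animals (day 21), and cells were captured 7 days after it. From each animal about 300 neurons labelled as sprouting and about 300 labelled as non-sprouting were pooled, and total RNA went through 2 rounds of T7 amplification. Each animal has a forward array, with sprouting RNA in Cy5 and non-sprouting RNA in Cy3, and a dye-swap array of the same RNA with the dyes exchanged. There is no animal without a stroke, and each pool is a mixture of many captured cells in which fewer cells of a type and less RNA per cell cannot be told apart.

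Between 20.6% and 95.4% of gene probes were well above background per array and pool. The 2 arrays of an animal were averaged after the sign of the dye-swap array was turned, and counted as 1 replicate, so n is 5 animals per day. Values are log2 ratios of sprouting over non-sprouting signal unless they are called levels, and means are given ± SD. The levels of day 21 replicates 4 and 5 stood apart from those of the other 8 animals on the first principal component in both pools, and the forward and dye-swap ratios of day 21 replicate 4 correlated at only 0.046 across probes. The number of animals limits the precision.

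Microglia and blood-derived macrophages that take up debris switch on a shared set of genes for lipid handling, lysosomal digestion and surface sensing. Tyrobp is the adaptor through which receptors such as Trem2 signal, Tlr2 recognises bacterial lipoproteins and damage signals, and the lysosome holds the proteases, lysozyme and membrane proteins that break down what is engulfed. After a stroke such cells gather in and around the infarct, next to the cortex in which surviving neurons form new connections.

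Because 9 of the 10 genes had a high ratio in the same animal, the stretch before the start site is shown for 3 of them. In each of the 3 the start in the RefSeq promoter table (GRCr8) is also the outer end of the gene. Each line gives the 250 bases before the start, read 5′ to 3′ on the gene's strand. Capitals mark 3 searched motifs on either strand, which do not overlap each other: TGAGTCA of AP-1, CATGTG (or CACATG), an E-box of the kind bound by the lysosomal and melanocyte factors of the MiT family, and GAGGAA (or TTCCTC), a core of PU.1, the myeloid master factor. The Gpnmb stretch is chr4:79340878-79341127 on the plus strand, that of Cd68 is chr10:54882442-54882691 on the minus strand and that of Ctsz is chr3:183653848-183654097 on the minus strand.
Gpnmb: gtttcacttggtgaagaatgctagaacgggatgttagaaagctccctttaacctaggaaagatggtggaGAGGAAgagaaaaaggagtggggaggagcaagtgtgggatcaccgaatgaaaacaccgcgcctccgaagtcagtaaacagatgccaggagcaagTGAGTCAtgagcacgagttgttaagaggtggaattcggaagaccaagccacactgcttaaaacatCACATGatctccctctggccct
Cd68: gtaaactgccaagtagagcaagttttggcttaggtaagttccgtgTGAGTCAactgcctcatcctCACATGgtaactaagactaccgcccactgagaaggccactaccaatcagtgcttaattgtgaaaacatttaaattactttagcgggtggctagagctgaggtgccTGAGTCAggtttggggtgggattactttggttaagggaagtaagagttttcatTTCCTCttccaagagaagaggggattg
Ctsz: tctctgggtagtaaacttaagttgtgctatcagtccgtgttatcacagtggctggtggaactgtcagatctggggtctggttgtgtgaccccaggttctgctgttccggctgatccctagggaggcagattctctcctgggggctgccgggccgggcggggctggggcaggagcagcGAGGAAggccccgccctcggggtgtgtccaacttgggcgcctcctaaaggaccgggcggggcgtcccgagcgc

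The table matched 7 of the 10 genes, without Tyrobp, Lgals3 and Lpl. TGAGTCA was in 2 of these 7 stretches, Gpnmb once and Cd68 at 2 places, and in 4.05% of the 33469 promoters searched. CATGTG was in the same 2 stretches and in 12.1% of all promoters. GAGGAA was in 5 of the 7, those of Gpnmb, Lyz2, Cd68, Ctsz and Ctss, and in 23.3% of all promoters. The Tlr2 and Cst7 stretches held none of the 3. The Gpnmb and Cd68 stretches thus hold all 3 motifs, while Ctsz holds only GAGGAA. A link of the motifs to the ratios was not tested. A match of letters is a description and not a binding site.

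At day 7 the 10 genes had a median ratio of 0.54 over the means of 5 animals, and 9 of the 10 means were above 0. Over all tested probes the median was -0.0019 and 48.8% were above 0. Replicate 1 carried most of this, and without it the members' median was 0.16. In replicate 1 alone 9 of the 10 genes, on 10 of 12 probes, had a ratio above 1, a doubling, against 1.81% of tested probes in that animal. The members' median by animal was 2.18, -0.14, 0.19, 0.34 and 0.13 in replicates 1 to 5. Replicate 1 was thus alone above 1, replicates 3 to 5 were a little above 0 and replicate 2 was below it. At day 21 the medians were 0.03, -0.0018, -0.11, -0.03 and 0.05, and no animal stood out.

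**Figure D1:**
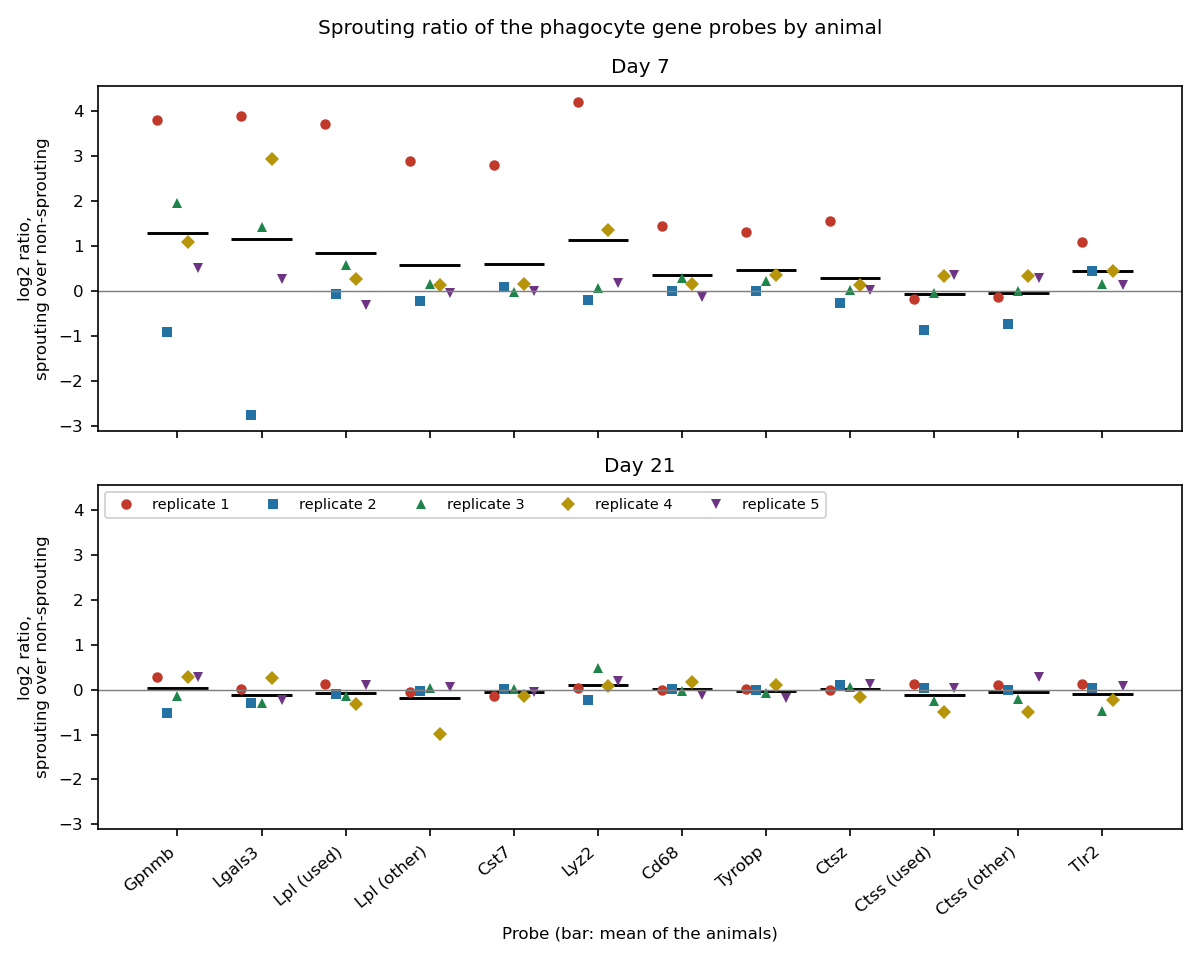
Log2 ratio of sprouting over non-sprouting signal (vertical axis) of each of the 12 probes (horizontal axis) in each animal, day 7 above and day 21 below; bars are means over the animals with a value, and "used" marks the brighter probe of Lpl and of Ctss, "other" the dimmer. Replicate 1 of day 7 lies between 1.10 and 4.21 for every probe except those of Ctss, and the day 21 points lie around 0.

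Gpnmb encodes a membrane glycoprotein of lipid-laden phagocytes and of pigment cells. Its day 7 ratios were 3.81, -0.91, 1.95, 1.09 and 0.51 in replicates 1 to 5, a mean of 1.29 ± 1.75 (SD, n = 5). Of its 5 values 4 were above 0. At day 21 it had 0.28, -0.52, -0.14, 0.28 and 0.29, a mean of 0.03 ± 0.36. The ranges of the days overlapped, since day 7 replicate 2 was below every day 21 animal. Without day 7 replicate 1 the day 7 mean was 0.66 ± 1.20 (SD, n = 4).

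Lgals3 encodes galectin-3, a sugar-binding protein that phagocytes keep in the cell and secrete. Its day 7 ratios were 3.90, -2.76, 1.42, 2.94 and 0.26, which gave a mean of 1.15 ± 2.59 and a spread larger than that of 99.98% of tested probes. The sprouting spot was saturated on both arrays of replicate 1, so 3.90 was measured at the scanner's ceiling. Replicate 2 lay nearly as far below 0 as replicate 4 lay above it. The day 21 values were 0.03, -0.30, -0.29, 0.26 and -0.23, with a mean of -0.11 ± 0.24.

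In replicate 3 Gpnmb and Lgals3 were 2 of only 13 probes with a ratio above 1, which was 0.0382% of those tested. Spp1, the osteopontin gene, led that short list with 2.51. Slamf9, an immune surface receptor, was on it with 1.41, S100a4, a calcium-binding protein, with 1.34 and Olr1, a receptor of oxidised lipoproteins, with 1.23. Also on it were Gpr6 with 1.31, Map4k3 with 1.13, Krt18 with 1.05, Ttk, and unnamed probes, the highest at 2.25. In replicate 1 Spp1, Slamf9, S100a4 and Olr1 lay between 3.79 and 4.39. Gpr6 had -0.39 there, Ttk -0.13, Map4k3 0.31 and Krt18 0.53, and the unnamed probes had -0.74, -0.20 and 1.80. In replicate 4 Lgals3, Lyz2 and Gpnmb were 3 of 23 probes above 1, or 0.0676% of those tested, and Spp1 again led with 3.36. C3h15orf48 came next with 3.24, and below Lgals3 came Anxa1 with 2.05, S100a4 with 2.03 and an unnamed probe with 1.98. Others in replicate 4 were Ccl3 with 1.98 and Ccl2 with 1.44, both chemokines. Il1rn, the interleukin-1 receptor antagonist, had 1.68 and Ctsk, a lysosomal protease, 1.42. Calca had 1.12 and another unnamed probe 1.45, against 0.65 and -0.22 in replicate 1. Not all of the 23 probes are printed. In replicate 2 Lgals3 was 1 of 221 probes below -1, which was 0.673% of those tested, beside Sostdc1 with -6.50, Anxa1 with -4.14, Igf2 with -3.52 and Otx2 with -2.31. In replicate 1 Sostdc1 had -0.17, this Anxa1 probe 6.36, Igf2 2.65 and Otx2 -0.09. S100a4 with -1.75 and Slamf9 with -1.18 were also below -1 in replicate 2, while Spp1 and Olr1 were not. Genes outside the 10 in these short lists were picked after their values were seen.

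Across the 10 animals the ratios of Gpnmb and Lgals3 correlated with r = 0.89 (Pearson) and rho = 0.94 (Spearman), as a description over animals of both days. The r was 0.82 without day 7 replicate 1 and 0.73 without day 7 replicates 1 and 2. For Gpnmb and Ctss it was 0.25 over the same animals.

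Lpl encodes lipoprotein lipase, which frees fatty acids from lipoprotein particles. Its brighter probe, A_44_P1016480, had day 7 ratios of 3.71, -0.08, 0.58, 0.27 and -0.30, a mean of 0.83 ± 1.64 that was 0.12 ± 0.39 without replicate 1. The dimmer probe, A_44_P151230, had 2.89, -0.22, 0.16, 0.14 and -0.05. Both placed replicate 1 alone near 3 or above and the other animals within 0.58 of 0. Day 21 gave the brighter probe 0.13, -0.09, -0.14, -0.32 and 0.10 and the dimmer probe -0.06, -0.03, 0.03, -0.98 and 0.07. At day 21 the probes differed most in replicate 4, where the dimmer gave -0.18 on the forward array and -1.78 on the dye-swap array. Over the 10 animals the r between both probes was 0.97, and it was 0.61 without day 7 replicate 1.

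Lyz2 encodes the lysozyme of macrophages. Its day 7 ratios were 4.21, -0.20, 0.07, 1.36 and 0.17, with a mean of 1.12 ± 1.83 and 0.35 ± 0.69 (SD, n = 4) without replicate 1. Besides replicate 1 only replicate 4 was above 1. The day 21 values were 0.04, -0.23, 0.48, 0.08 and 0.20, a mean of 0.11 ± 0.26.

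Cd68 encodes a heavily glycosylated protein of the phagocyte lysosome. It had 1.45, 0.01, 0.30, 0.15 and -0.13 at day 7, with replicate 1 far above the rest. Ctsz, the lysosomal carboxypeptidase cathepsin Z, had 1.55, -0.27, 0.03, 0.14 and 0.02, the same shape. Cst7 encodes cystatin F, an inhibitor of lysosomal cysteine proteases, and had 2.80, 0.08, -0.03, 0.14 and 0.00. For Cd68 the mean was 0.35 ± 0.63, for Ctsz 0.29 ± 0.72 and for Cst7 0.60 ± 1.23, and without replicate 1 they were 0.08, -0.02 and 0.05. Their day 21 means were 0.0077 ± 0.11, 0.02 ± 0.11 and -0.06 ± 0.079 in the same order. The Cst7 spot was well above background in the sprouting pool on 4 of 10 day 21 arrays and on 9 of 10 day 7 arrays. In the non-sprouting pool it was so on 9 of 10 day 21 and 7 of 10 day 7 arrays. Over all gene probes the sprouting share above background was also low on some day 21 arrays, down to 20.6% on the dye-swap array of replicate 4. The Cst7 counts are thus not read as a change of the gene.

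Ctss encodes cathepsin S, a cysteine protease that microglia also make at rest. It was the exception in replicate 1. Its brighter probe, A_44_P1004731, had -0.18, -0.87, -0.04, 0.33 and 0.36 at day 7, and the other, A_44_P355928, had -0.13, -0.73, -0.01, 0.33 and 0.29. The means were -0.08 ± 0.50 and -0.05 ± 0.43. In replicate 1 the brighter probe was saturated in the sprouting channel of 1 array and the non-sprouting channel of the other, and the dimmer in the non-sprouting channel of 1 array, so a difference there could be hidden by the ceiling. Replicate 2 was the lowest animal on both probes, as it was for Gpnmb and Lgals3. On day 21 arrays both means were below 0, at -0.12 ± 0.26 and -0.06 ± 0.30.

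Tyrobp encodes the signalling adaptor also called DAP12. It had 1.30, 0.01, 0.23 and 0.35 in day 7 replicates 1 to 4, a mean of 0.47 ± 0.57 (SD, n = 4). In replicate 5 the forward spot was marked as an outlier and the animal was left out for this probe; the dye-swap array alone gave 0.19. None of these 4 animals was below 0. Its day 21 mean was -0.03 ± 0.11 (SD, n = 5).

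Tlr2 encodes a Toll-like receptor of the cell surface. It had 1.10, 0.44, 0.16, 0.44 and 0.13 at day 7, a mean of 0.45 ± 0.39, and was above 0 on 10 of 10 arrays. It was the only one of the 11 probes with a value in all 5 animals that was above 0 in each, and 5.23% of probes tested this way were. At day 21 it had 0.13, 0.03, -0.47, -0.24 and 0.08, a mean of -0.09 ± 0.25. The lowest day 7 animal, 0.130, was just above the highest day 21 animal, 0.129, so that the days did not overlap, which 0.626% of probes showed with day 21 lower. Without replicate 1 the day 7 mean was 0.29 ± 0.17 (SD, n = 4).

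The day 21 ratios, which are taken here not to have entered the choice of the genes, gave no call. By limma with Benjamini-Hochberg adjustment over all probes 0 of 34225 probes passed 0.05, or 0%, and 0 of the 12 members' probes did. At an unadjusted p under 0.05 the count was 1627 probes, or 4.75%, and again 0 of the 12. The members' adjusted p in limma ran from 0.954 to 0.999. Their day 21 means lay between -0.19 for the dimmer Lpl probe and 0.11 for Lyz2, with moderated SEs from 0.13 for Tlr2 to 0.73 for Lgals3. These SEs use the spread of both days together, so the day 7 values enter the day 21 test through the spread. For Cst7 the day 21 SD was 0.079 and the moderated SE 0.35. A small day 21 ratio could therefore be missed, and the lack of calls does not show that there is none. The members' median at day 21 was -0.05, with 4 of 10 genes above 0, beside -0.0015 over all probes tested. Without day 21 replicates 4 and 5, left out after their levels were seen to stand apart, it was -0.03, and limma again called 0 probes.

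For the whole array the day 7 comparison called 0 probes, or 0%, with 2070 (6.05%) at an unadjusted p under 0.05, and the difference between days called 0 probes (0%) with 1411 (4.12%). The differences of the members, day 21 minus day 7, were -1.25 with an SE of 0.71 for Gpnmb, -1.26 with an SE of 1.03 for Lgals3, -1.01 with an SE of 0.73 for Lyz2 and -0.55 with an SE of 0.19 for Tlr2. For both Ctss probes they were -0.04 and -0.01. All 12 were below 0. The differences hold the day 7 values taken to have chosen the genes, so their shared sign is no result about these genes. The share below 0 over all probes is not given here.

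Arrays were scanned in 5 sessions, and only 1 of them held both days, with day 7 replicates 4 and 5 and day 21 replicate 1. Within it the difference was -0.52 for Gpnmb, -1.58 for Lgals3, -0.72 for Lyz2, -0.34 for Tyrobp, -0.21 for Cst7 and -0.16 for Tlr2. It was -0.10 for Ctsz and -0.01 for Cd68, and -0.23 and -0.20 for the Ctss probes. The Lpl probes gave 0.15 and -0.10, so 1 of them turned sign. Day 7 replicate 1 was scanned in a session of its own, and the animal and its session cannot be told apart.

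The dye orientations were compared animal by animal, with the dye-swap ratio turned. Gpnmb had 4.24 on the forward and 3.37 on the dye-swap array of replicate 1, and in all 10 animals both arrays gave 1 sign. The brighter Lpl probe also gave 1 sign in 10 of 10 animals, and Lgals3 and Lyz2 did in 9 of 10. Lgals3 had 4.05 and 3.74 in replicate 1, -2.65 and -2.87 in replicate 2 and 3.07 and 2.81 in replicate 4. Lyz2 had 4.49 and 3.94 in replicate 1 and 1.34 and 1.38 in replicate 4. The large ratios of both signs thus recurred with the dyes exchanged. Probes with ratios near 0 matched less often, with 5 of 10 animals for Cd68, 5 of 10 for Cst7 and 4 of 10 for Ctsz. The mean of Cd68 at day 7 was 0.52 on the forward arrays against 0.19 on the dye-swap arrays, and at day 21 it was 0.12 against -0.10.

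**Figure D2:**
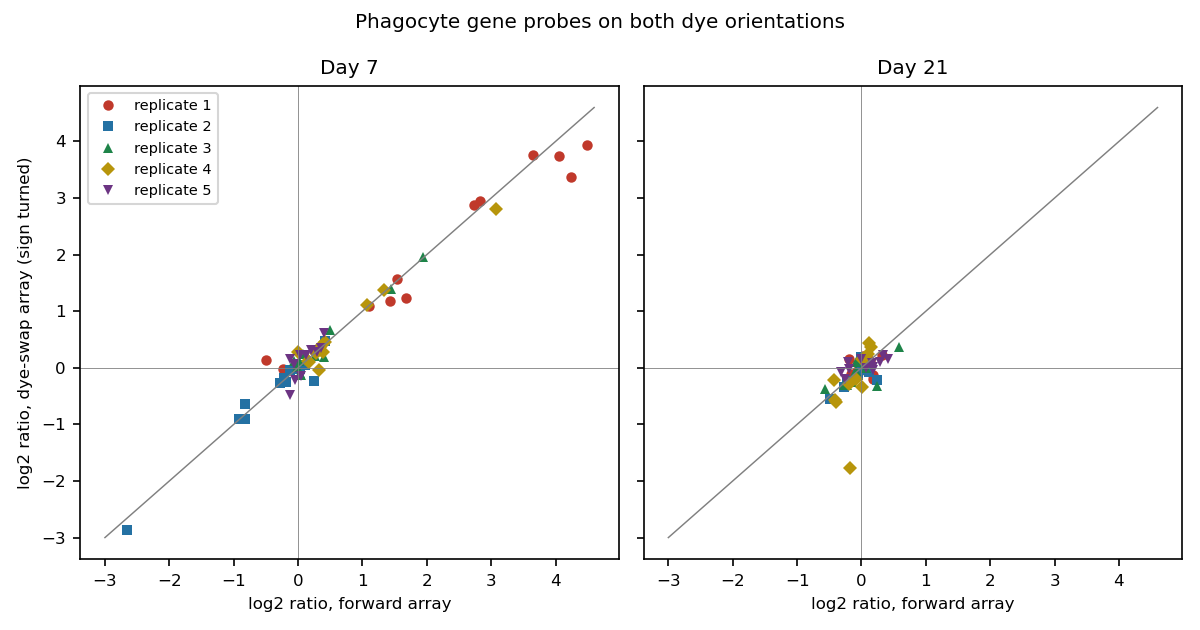
Each point is 1 probe in 1 animal, with the log2 ratio on the forward array (horizontal axis) against the sign-turned log2 ratio on the dye-swap array (vertical axis); the line marks equal values. Large day 7 ratios lie near the line in both directions, and at day 21 the dimmer Lpl probe of replicate 4, at -0.18 and -1.78, lies off it.

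Levels in each pool show which side of a ratio moved. They are log2 signals scaled to 1 distribution across arrays, and each probe is read against itself only. Gpnmb stood at 14.11 in the sprouting pool of day 7 replicate 1 and at 7.81 to 9.73 in the sprouting pools of the other day 7 animals. Its non-sprouting level was also highest in replicate 1, 10.30 against 7.67 to 8.72. Lyz2 stood at 13.94 in the sprouting pool of replicate 1 and 8.67 to 10.06 in the other 4, while its non-sprouting level of 9.73 was close to the 9.68 of replicate 2. For Lgals3 replicate 1 had 14.65 against 10.75. Replicate 2 had 9.46 in the sprouting and 12.22 in the non-sprouting pool, so its negative ratio came with the highest non-sprouting level of any animal. In replicate 4 it was the sprouting pool that was high, 11.39 against 8.45.

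Cd68 differed between the days in both pools. At day 7 its level was 10.84 to 13 in sprouting and 10.55 to 11.55 in non-sprouting pools, and at day 21 it was 9.93 to 10.44 and 9.80 to 10.43. Every day 7 animal was above every day 21 animal in either pool, with a difference of -1.27 in sprouting and -0.93 in non-sprouting pools, day 21 minus day 7. Without day 21 replicates 4 and 5 the day 21 levels were 10.03 to 10.44 and 10.07 to 10.43. Within the scan session that held both days the difference was -0.95 and -0.94. Among probes with a value in every animal 4.06% had all day 7 sprouting levels higher and 4.91% all non-sprouting levels higher. In the sprouting pool Lgals3 and both Ctss probes also did not overlap, and in the non-sprouting pool no other member did. Lgals3 sprouting levels were 9.18 to 14.65 at day 7 and 6.90 to 9.08 at day 21, or 8.27 to 9.08 without replicates 4 and 5. The level comparison was made after the values were seen and has no test.

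**Figure D3:**
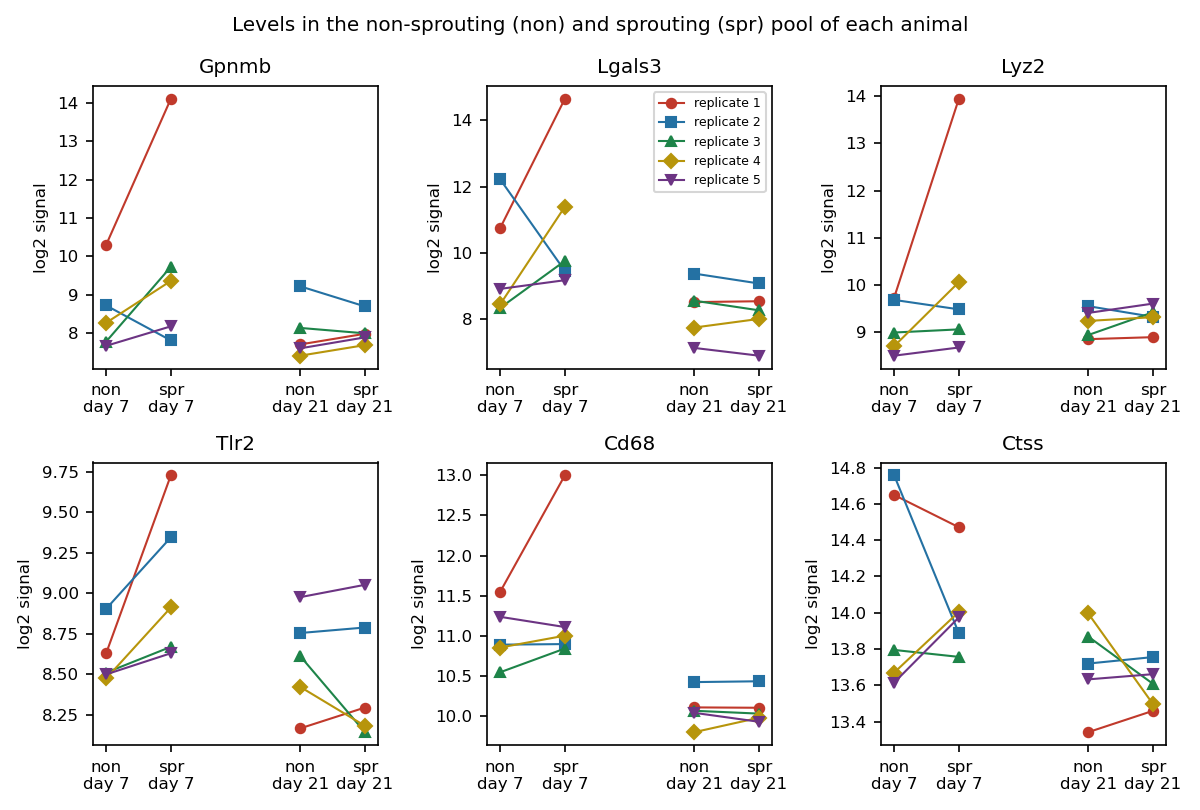
Log2 signal (vertical axis) of 6 genes in the non-sprouting and sprouting pool of each animal, joined by a line, with day 7 on the left and day 21 on the right of each panel; the vertical axes differ between panels. Replicate 1 of day 7 rises steeply from the non-sprouting to the sprouting pool for Gpnmb, Lgals3, Lyz2 and Cd68, and Cd68 is lower in all day 21 pools than in any day 7 pool.

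Further genes of the same processes were read from lists, each gene on its brightest probe. By limma 0 genes of any list passed the adjusted threshold at either day, against 0% of all probes. Of 40 genes that accompany phagocyte activation 36 were on the array and 34 had a day 7 mean above 0, with a median of 0.40 that was 0.03 without replicate 1. Day 21 had a median of -0.02 and 14 were above 0. In replicate 1 the list's median was 1.83 and 24 of 36 genes were above 1, against 0.14 in replicate 4 and -0.05 in replicate 2. Spp1 had 3.79 in replicate 1 and 0.33 to 3.37 in the others, with 2 saturated arrays. Igf1, a growth factor, had 3.37 and 0.25 to 0.97, and Trem2, the receptor that signals through Tyrobp, 2.00 and -0.10 to 0.23. Cd63, a lysosomal tetraspanin, had 1.92 and -1.20 to 0.21, and Fabp5, a fatty acid carrier, 1.54 and -0.32 to 0.13. Apoe, the lipid carrier, had 0.74 in replicate 1, Cd9, a tetraspanin, 0.70 and Axl, a receptor for dying cells, 0.09.

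Among 33 lysosomal genes the median was 0.08 at day 7, -0.01 without replicate 1 and -0.02 at day 21. In replicate 1 it was 0.59 and 8 of 33 genes were above 1. The highest of those were Ctsk with 4.91 and Atp6v0d2 with 4.36. The proteases Ctsl with 2.39 and Lgmn with 1.28 were also among them, while Ctsb had 0.75, Ctsd 0.71 and the protease inhibitor Cst3 0.15. The 33 genes of Toll-like receptor signalling had a median of 0.07 in replicate 1 and 0.02 over day 7. In replicate 1 the 4 genes above 1 were the chemokine Ccl2 at 6.96, the co-receptor Cd14 at 2.98, the cytokine Il1b at 2.62 and Ly96, the partner of Tlr4, at 1.37. Tlr6, a partner of Tlr2, had 0.61, Myd88, the shared adaptor, 0.15 and Tlr4 0.04, and the lowest was the chemokine Cxcl10 at -1.28. Tlr1 and Ly96 were too dim to be tested. Of 15 genes around Tyrobp the median was 0.61 in replicate 1, with Syk, the kinase that Tyrobp recruits, at 0.95 and Plcg2, a phospholipase, at 0.70. Over day 7 that median was 0.13, and at day 21 it was -0.04.

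The lipoprotein lipase list, 19 genes, had a median of 0.16 in replicate 1 and 0.01 over day 7. In replicate 1 the 4 genes above 1 were the fatty acid carriers Fabp4 at 4.62 and Fabp5 at 1.54, the nuclear receptor gene Nr1h3 at 1.15 and Angptl4, an inhibitor of the lipase, at 1.10. Lmf1, which folds the lipase, had 0.16 and Gpihbp1, which anchors it in capillaries, -0.07. Fabp4 was too dim to be tested: at day 7 it was well above background on 4 arrays in the sprouting and 2 in the non-sprouting pool. The lists for activation partners, lysosome and Tyrobp signalling thus had medians above 0.5 in replicate 1, and those for Toll-like receptor signalling and lipoprotein lipase did not. Some genes stand in more than 1 list, among them Trem2, Cd14 and Fabp5.

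Markers of other cell types were read in the same pools. The 20 microglia markers on the array had a median of 0.02 in replicate 1, with Cx3cr1 at -0.36, P2ry12 at -0.05, Csf1r at 0.11, C1qa at -0.46, Aif1 at 0.02 and Itgam at 0.39. Trem2, also in the list of activation partners, was the exception at 2.00, and the next highest were Runx1 at 0.56, Olfml3 at 0.53 and Ptprc at 0.43. The median was 0.03 over day 7 and -0.04 at day 21. Their summed level was 12.98 to 14.46 in sprouting and 12.78 to 14.52 in non-sprouting pools at day 7, and 17 to 20 and 12 to 20 of them were well above background per array. In replicate 1 the median of the genes described here was 2.18, with Ctss, at the scanner's ceiling, among the values of the microglia markers. A gap of that size between both medians was seen in this 1 animal only. In day 7 replicates 2 to 5 the genes described had medians of -0.14, 0.19, 0.34 and 0.13. The microglia markers had -0.08, 0.08, 0.06 and 0.05 in the same animals.

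Monocyte and macrophage markers, 16 genes, had a median of 0.39 in replicate 1 and 0.12 over day 7. In replicate 1 Fn1, the fibronectin gene, had 3.75 and the class II gene RT1-Da -0.64. The highest there was Arg1 at 5.38, which had -0.96 to 1.11 in the other day 7 animals, and Cd14 had 2.98. The lowest in replicate 1 were RT1-Ba, too dim to be tested, at -1.10 and Cd74 at -0.93. Their summed level was 11.82 to 15.46 in sprouting and 11.74 to 14.22 in non-sprouting pools at day 7, and 11.81 to 12.16 and 11.67 to 12.38 at day 21. Red blood cell markers, 5 genes, had 0.58 in replicate 1, with Hbb at 2.28. Their summed level at day 7 was 15.30 to 16.00 in sprouting and 13.84 to 15.54 in non-sprouting pools. Hbb-b1, the brightest of them, was saturated on 9 arrays of the series, so these sums can be limited by the scanner's ceiling. Endothelial and pericyte markers had 0.25. Neutrophil markers, 14 genes, had -0.01, with S100a9 at 1.67, S100a8 at -0.01 and Camp at 0.66. The part of these cell types in the ratios was not tested.

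Astrocyte markers had a median of -0.08 in replicate 1 and oligodendrocyte markers -0.08. In replicate 2 the oligodendrocyte median was -0.71, lower than in any other animal, beside the negative ratios of Gpnmb, Lgals3 and Ctss; its part in them was not tested. Cortical neuron markers, the labelled cell type, had -0.21 in replicate 1 and 0.14 in replicate 2. Their summed level was 16.04 to 16.25 in sprouting and 16.12 to 16.38 in non-sprouting pools at day 7, and 16 to 17 and 15 to 17 of 17 were well above background per array. In replicate 1 the 17 ratios ran from -1.12 for Nefm, a neurofilament gene, to 0.49 for Syt1, a synaptic vesicle protein. The brightest 3 were Snap25, a synaptic protein, at 0.11, Eno2, the neuronal enolase, at 0.02 and Stmn2, a growth-associated microtubule protein, at -0.23. The part of the lower neuron markers in the ratios of that animal was not tested.

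**Figure D4:**
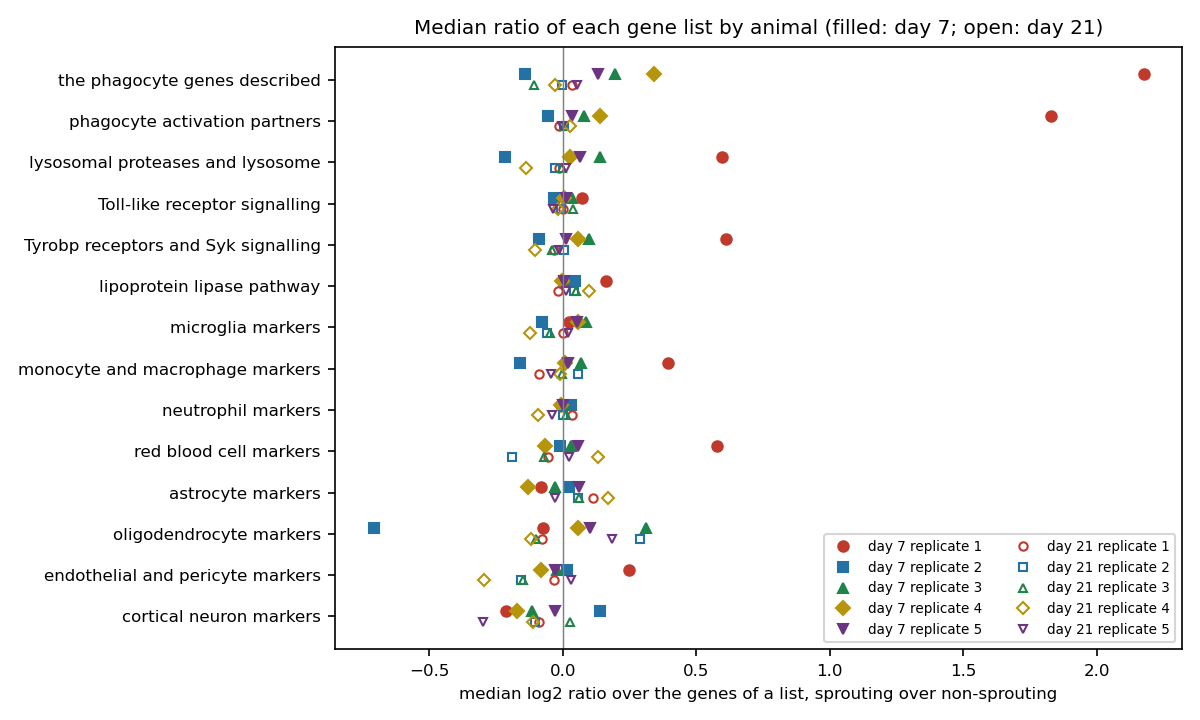
Median log2 ratio over the genes of each list (horizontal axis) by animal, with day 7 filled and day 21 open; colours and shapes mark the replicate. Day 7 replicate 1 lies at 2.18 for the genes described and 1.83 for their activation partners, near 0 for microglia markers, and day 7 replicate 2 lies at -0.71 for oligodendrocyte markers.

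Genes outside the 10 were ranked by how closely their ratio followed the members' mean ratio over the 10 animals, among 11680 named genes. The closest were Fermt3, an integrin-binding protein of blood cells, with r = 0.98 and rho = 0.77, Slamf9 with 0.98 and 0.78, Olr1 with 0.98 and 0.94, Capg, an actin-capping protein of macrophages, with 0.98 and 0.92, and Itgb2, the beta chain of leukocyte integrins, with 0.98 and 0.92. Without day 7 replicates 1 and 4, the animals farthest from the median, r was 0.79 for Fermt3, 0.96 for Slamf9, 0.87 for Olr1, 0.81 for Capg and 0.91 for Itgb2. In replicate 1 Slamf9 had 4.2, Olr1 4.13, Itgb2 2.62, Capg 2.38 and Fermt3 1.79. These likenesses describe 10 animals that share array design and processing.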

How the data were processed

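The 20 arrays of 10 animals were Agilent slides read in Cy5 and Cy3. Spot mean and background intensity were deposited on a linear scale as Agilent Feature Extraction 9.1.3.1 wrote them, per the file headers; its log10 ratio of red over green, background-corrected and dye-normalized per the file headers, was tried instead. Log2 ratios in the authors' deposited table were tried too: its 20 columns used here correlated with their own arrays at 0.900 to 1.00, with slopes of 0.864 to 1.64 and medians of 0.0034 to 0.015, so it runs red over green, while its exact scale and centring stay unknown. A further 20 columns of it were not used. Genome build and array normalization by the authors are not given in the sources used here.

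Background was corrected with normexp (offset 50) and ratios with loess in limma 3.58.1 under R 4.3.3, control spots at weight 0. Outlier spots (11 to 4088 per array) were set to missing and saturated spots kept. Spots of a probe were averaged, ratios turned to sprouting over non-sprouting, and the forward and dye-swap arrays of an animal averaged, missing unless both gave a value. Levels had Aquantile scaling between arrays, and a list's summed level is the log2 of its summed linear signals. A probe was tested if, for either pool on either day, 3 or more animals had it well above background on the forward and the dye-swap array. Both days entered 1 limma fit (lmFit, eBayes) with Benjamini-Hochberg adjustment at 0.05, which was tested on simulated data. One gene value is that of its brightest probe. Gene names came from RefSeq tables of GRCr8, for 10658 probes by accession, 4654 by symbol and 3886 by synonym, and 21814 have no name here. The naming rule was every member probe, genes chosen for each list by role and the brightest 3 of a list, whatever their ratio, and the 5 genes most like the members; not all of the brightest 3 are printed, and genes quoted from single animals, list genes above 1 or at the end of a range included, were picked after their values were seen. The members and lists were chosen with earlier results of these data known. Alternatives covered background, normalization, filter, spots, orientation, blocks and each animal left out. Same-numbered animals of the days are separate animals, so numbers were not used to pair them.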

Additional observations from a re-analysis of the deposited data

Results flagged for a closer look

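Among the 5 animals of a day, 7 of 26 sets of values (12 probes and the members' median, on each day) had 1 animal far from the others. The sets share animals and genes, and the day 7 values are taken to have chosen the genes. The count is therefore a description and is not set against chance. Of the 7 sets, 6 came from day 7 replicate 1: the brighter Lpl probe at 3.71, the dimmer Lpl probe at 2.89, Cst7 at 2.80, Cd68 at 1.45, Ctsz at 1.55 and the members' median at 2.18. Gpnmb, Lgals3 and Lyz2, with values as high in that animal, were not picked out because other animals were also away from 0. At day 21 the dimmer Lpl probe in replicate 4 stood apart at -0.98, and the brighter probe had -0.32 in that animal.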

How the results depend on the processing

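The members' median at day 7 stayed above 0 under all 20 alternatives run for it, from 0.16 without day 7 replicate 1 to 0.68 without day 7 replicate 2. At day 21 it stayed below 0 under its 20 alternatives, from -0.21 to -0.01; the -0.21 came with median centring in place of loess, and the cause was not tested. Leaving out 1 animal gave -0.05 to -0.01. The 20 alternatives of each day include the runs that left out only animals of the other day. Those runs cannot change the median, so the number of alternatives overstates the check. Counts of called probes, 0 by the reported limma fit, moved to 1 at day 7 with no background correction, to 1 at day 21 with median centring, and to 13, 2 and 1 at day 7, day 21 and for their difference with the 20 arrays entered singly; no member was among them. With a replicate block the difference called 0 probes, and same-numbered animals deviated together by correlations of only -0.20 to 0.04. Of 228 values of single member probes at day 7 under the alternatives, 228 stayed within 1 SD and 3 changed sign. Of 228 at day 21, 6 left it and 21 changed sign. Many of these values could not leave 1 SD. Leaving out an animal of the other day moves nothing, and leaving out 1 animal of the same day cannot move a mean that far. Day 7 replicate 1 also widens the day 7 SD. Without it the dimmer Lpl probe went from 0.59 to 0.0085 and still counted as within 1 SD. The counts are thus no measure of stability. Dim spots, such as Cst7 at day 21, limit what a ratio near 0 can show.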
